A study of Mus musculus with 24 samples.

Results

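Mouse CD8+ T cells that had been rested and stimulated again were compared with cells of a single earlier stimulation, both untreated, without the glucocorticoid or IL27 that other cultures of the series received. The comparison takes 6 of the 24 libraries of the series: 3 of untreated WT cells at day 9 (WT_Ctrl_Day9) and 3 of untreated WT cells at day 3 (WT_Ctrl_Day3). Libraries were chosen by their labels only, and no measured value entered the choice. Cells of both groups came from C57BL/6 mice of the genotype E8i-Cre- Nr3c1 fl/fl, so that the glucocorticoid receptor gene was flanked by loxP sites but carried no Cre to delete it, and the labels call this genotype WT. Per the labels, naive CD8+ cells without CD44 were sorted from spleen and lymph nodes and cultured on anti-CD3 and anti-CD28, each antibody at 1 µg/ml. Day 3 cells had 3 days of this stimulation. Day 9 cells had the same 3 days, then rested for 3 days with IL2 (5 ng/ml), then had 3 days on the same antibodies. Per the labels, 1000 cells were sorted for each library, which was then prepared by modified SMART-Seq2 and amplified over 11 cycles. Day, culture history and library series go together: all day 3 libraries have titles that begin with D and all day 9 libraries have titles that begin with E. Their parts in any difference therefore cannot be told apart. Whether the replicates are separate mice or cultures is not given, so a p-value here reflects library spread alone, which may be technical.

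A naive CD8+ T cell that meets antigen with costimulation enlarges, divides and turns on genes for cytokines and for the cytotoxic granules that kill target cells. When the stimulus ends and IL2 remains, activated cells live on as effector-like blasts with open chromatin at effector genes, and a later stimulus acts on these differentiated cells rather than on naive ones. Repeated stimulation is also known to raise inhibitory receptors such as PD-1, TIM-3 and LAG-3. Plate-bound antibodies engage the receptor without antigen-presenting cells, infection or tissue signals, which limits this culture as a model of a recall response.

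The labelled cell type was first checked against its markers. Summed over 10 CD8 T cell markers, levels were 3240 to 3288 CPM (counts scaled to a common library size) at day 3 and 3328 to 3569.6 CPM at day 9. The sum hides opposite changes, as 5 of the 10 markers rose and 3 fell. Cd2 went from 205 to 317 CPM and Cd28 from 159 to 82.0 CPM on average. Cd8a, the alpha chain of the coreceptor, was at 366, 378 and 369 CPM at day 3 and 359, 419 and 327 CPM at day 9 (-0.01 ± 0.07, adjusted p = 0.914), and the groups overlapped. Cd8b1, the beta chain, fell (-0.32 ± 0.07, adjusted p = 0.00186). Of 10 B cell markers, Pax5, Blk and Fcrla were at 0 counts in all 6 libraries, and of 17 myeloid and dendritic markers Clec9a, Mpo, S100a8 and S100a9 were at 0. Their summed levels were 18.3 to 21.8 CPM at day 3 and 19.5 to 19.7 CPM at day 9 for B cell markers. For myeloid markers they were 7.15 to 9.88 CPM at day 3 and 24.3 to 40.9 CPM at day 9. Ccr2, a chemokine receptor that T cells also express, held 27.1 CPM of the day 9 level on average. Of 4 tested myeloid markers 2 rose and 1 fell. Cd14 rose from 7 to 48 counts, a call lost in 3 of 14 alternative fits. Cd68 was at 5.43 CPM at day 3 and 2.43 CPM at day 9 on average, and Itgax had 0 and 13 counts. The part of such cells in other results was not tested. Cd79b, the most abundant B cell marker, fell to 9.02, 9.97 and 10.5 CPM from 16.7, 20.7 and 20.9 CPM (-0.98 ± 0.13, adjusted p = 1.1e-04), and Cd79a had 10 counts at day 3 and 0 at day 9. The transcription factor gene Ebf1, another marker of that list, rose to 10.1, 7.18 and 7.69 CPM from 0.529, 0.366 and 0.419 CPM (4.23 ± 0.28, adjusted p = 9.0e-07). Igj, also of that list, rose from 16 to 65 counts, a call lost in 9 of 14 alternative fits. Cd4 was at 9 counts over the day 3 libraries and 22 over the day 9 libraries. In bulk RNA, fewer cells of a type and less RNA per cell cannot be told apart.

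Library totals of estimated counts ran from 14221914 to 16387217 at day 3 and from 17090712 to 18377479 at day 9. Rn45s, the precursor of ribosomal RNA, took 11.1% ± 0.57 of counts at day 3 and 9.11% ± 0.15 at day 9 (SD, n = 3, exact permutation p = 0.1, two-sided, the smallest p that 3 against 3 libraries can give). Between 11489 and 11605 genes had at least 10 counts at day 3 and between 11595 and 11660 at day 9 (exact permutation p = 0.2). On the leading principal component of all 24 libraries, which held 49.8% of the variance, the day 3 libraries lay between -54.8 and -52.5 and the day 9 libraries between 6.01 and 8.89. Replicates lay close together and the groups lay far apart.

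Most genes tested differed between the groups. The edgeR quasi-likelihood F-test was run on 11740 genes, of which 6184 (52.7%) passed at a Benjamini-Hochberg adjusted p under 0.05, and a gene is said to have risen or fallen at day 9 only where it passed. Of these, 3043 rose (25.9%) and 3141 fell (26.8%). At least 2-fold, 669 genes rose (5.7%) and 796 fell (6.78%). By limma on log2(FPKM + 1) these counts were 335 and 281, and on log2(FPKM + 0.1) 501 and 508, so which direction held more such genes depended on the method. In 7056 genes (60.1%) all 3 libraries of a group lay above all 3 of the other. The median log2 change of all genes tested was -0.02. Changes are log2 fold changes ± SE, day 9 minus day 3, and levels are CPM scaled by TMM over the 6 libraries. The counts of each gene list are to be read against the 25.9% of all genes that rose and the 26.8% that fell. A member that met the low-count filter at 1 day alone had at least 1 library of the other day below the cutoff. The filter thus favoured a higher level at the day that met it, without fixing it. A list for which such members are not counted held at most 2.

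**Figure D1:**
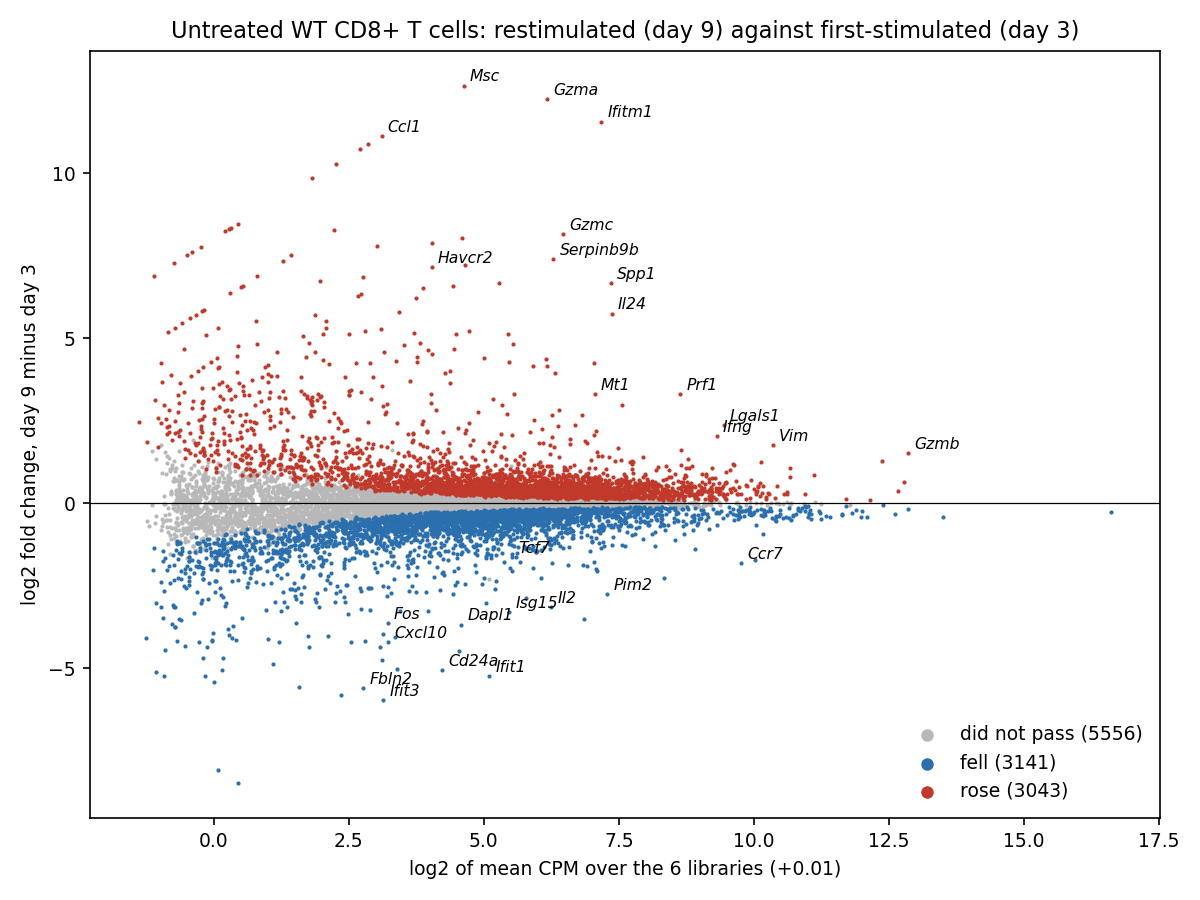
Log2 fold change (day 9 minus day 3) against log2 mean CPM over the 6 untreated WT libraries, each point 1 of 11740 genes. Genes that rose (3043), fell (3141) and did not pass are coloured apart, and Msc, Gzma and Ifitm1 lie highest while Ifit3, Fbln2 and Ifit1 lie lowest among the labelled genes; fitted changes of genes at 0 to 3 counts in a group are not bounds.

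The largest rises were in genes with few or no counts after the first stimulation. Msc, which encodes the basic helix-loop-helix repressor musculin, had 0 counts over the 3 day 3 libraries and 2589 over the 3 day 9 libraries. Set against a 3-count floor for the day 3 group, Msc was 757-fold higher, with 728 as the lower 95% counting limit. Its day 9 libraries were at 41.6, 48.2 and 58.3 CPM. Ifitm1, of the interferon-induced transmembrane family, went from 4 to 15062 counts and stood at 274, 354 and 240.5 CPM at day 9 (adjusted p = 2.2e-09). Spp1, which encodes the secreted matrix protein osteopontin, was at 3.11, 4.94 and 1.19 CPM at day 3 and 379, 379 and 216 CPM at day 9 (6.68 ± 0.33, adjusted p = 1.1e-07). Cdh17, a cadherin known from intestine and liver, had 0 and 687 counts. Against the same floor it was 201-fold higher, with 186 as the lower 95% counting limit.

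Other genes among the 15 largest rises had varied roles. Ltb4r1, the leukotriene B4 receptor BLT1 that guides effector T cells, was at 0.265, 0.244 and 0 CPM at day 3 and 49.5, 51.7 and 42.6 CPM at day 9 (8.04 ± 0.27, adjusted p = 8.1e-09). Shroom3, an actin-binding protein, was at 0.132, 0.305 and 0.559 CPM at day 3 and 49.4, 44.5 and 55.6 CPM at day 9 (7.22 ± 0.23, adjusted p = 5.9e-09). Filip1, a partner of filamin A, had 3 and 842 counts, a ratio of 246 (95% counting interval 83.9 to 1196). Anxa1, an annexin that restrains inflammation, was at 0.132, 0.183 and 0 CPM at day 3 and 16.8, 15.8 and 7.74 CPM at day 9 (6.85 ± 0.53, adjusted p = 2.3e-06). Serpinb9b, of the family of serpins that inhibit granule proteases and have similar copies, was at 0.794, 0.732 and 1.26 CPM at day 3 and 248, 108 and 111 CPM at day 9 (7.39 ± 0.45, adjusted p = 4.7e-07), with its highest day 9 value in replicate 1. Reads of Ugt1a10, a glucuronosyltransferase whose locus shares exons between isoform genes, cannot be placed on that gene alone; it was at 0, 0.366 and 0 CPM at day 3 and 45.7, 20.8 and 31.3 CPM at day 9.

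Interferon-stimulated genes were among the largest falls. Beside Ifit1, Ifit3, Oasl1, Oasl2, Rsad2 and Cxcl10, the 15 largest falls held Fbln2, which encodes the matrix protein fibulin 2, at 12.4, 13.7 and 13.8 CPM at day 3 and 0.291, 0.237 and 0.275 CPM at day 9 (-5.59 ± 0.23, adjusted p = 3.0e-08). Cd24a, a surface glycoprotein of immature and newly activated lymphocytes, was at 39.2, 36.1 and 33.6 CPM at day 3 and 1.86, 0.593 and 0.824 CPM at day 9 (-5.05 ± 0.25, adjusted p = 1.0e-07). The zinc finger factor gene Plagl1, an imprinted growth regulator, was at 21.6, 19.1 and 20.2 CPM at day 3 and 0.6402, 0.593 and 0.604 CPM at day 9 (-5.03 ± 0.17, adjusted p = 1.1e-08). All day 9 libraries of these genes lay below all day 3 libraries, as the rule for naming them required. Trib2, a pseudokinase (-4.20 ± 0.28), Atp1b1, a subunit of the sodium pump (-4.37 ± 0.20), Slc14a1, a urea transporter (-4.17 ± 0.31), and Cox6a2, a cytochrome oxidase subunit best known from muscle (-4.76 ± 0.20), also fell.

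Cytotoxic granule genes were higher after restimulation, led by granzymes and perforin. Gzmb, which encodes granzyme B, the protease that starts apoptosis in target cells, was at 3704, 3801 and 3997 CPM at day 3 and 11364, 11658 and 10210.1 CPM at day 9. Each day 9 library held more than any day 3 library (1.53 ± 0.05, adjusted p = 4.3e-09), a 2.89-fold rise of a gene that was already abundant. Prf1, which encodes the pore-forming perforin, was at 79.1, 68.9 and 68.7 CPM at day 3 and 827, 693 and 646 CPM at day 9 and rose 9.99-fold (3.32 ± 0.09, adjusted p = 3.2e-09). Fasl, the ligand of the death receptor Fas, was at 21.1, 15.7 and 16.7 CPM at day 3 and 69.7, 76.7 and 75.7 CPM at day 9 (2.05 ± 0.11, adjusted p = 1.6e-07), again without overlap. Per length, Gzmb was at 2636 ± 88.6 FPKM at day 3 and 7683 ± 516 FPKM at day 9 and Prf1 at 34.3 ± 3.05 FPKM at day 3 and 345 ± 44.3 FPKM at day 9 (SD, n = 3), so granzyme B remained the more abundant of both transcripts.

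Other granzymes went from near 0 to clear levels. Gzma, which encodes the tryptase granzyme A, had 1 count at day 3 and 7452 at day 9, a ratio of 6535 (95% counting interval 1173 to 258162), and its day 9 libraries were at 129.96, 227 and 76.1 CPM. Gzmc was at 1.19, 0.305 and 0.349 CPM at day 3 and 202, 245 and 81.5 CPM at day 9 (8.15 ± 0.56, adjusted p = 1.0e-06). Gzmd had 0 and 745 counts. Against a 3-count floor for the day 3 group it was 218-fold higher, with 202 as the lower 95% counting limit. Replicate 3 was the lowest of the day 9 libraries for all 3 of these genes and replicate 2 the highest. Granzymes lie in clusters of similar genes, so reads may be shared among them, Gzmc and Gzmd above all. Genes whose symbols begin with Gzm together took 0.387% ± 0.014 of counts at day 3 and 1.13% ± 0.091 at day 9 (SD, n = 3, exact permutation p = 0.1, the smallest possible).

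Of 18 tested members of the list of cytotoxic granule and death ligand genes, 11 rose, 1 fell and 6 did not pass, with a median change of 0.82. The low-count filter favoured a rise in the list's 5 members that met it through the day 9 libraries alone. Among the 13 that met this filter at both days, 6 rose and 1 fell. Without WT_Ctrl_Day9 replicate 1, without WT_Ctrl_Day9 replicate 2 or with a block on replicate number the falls in the list numbered 2. The fall was that of Serpinb6b, a serpin of lymphocytes, at 1635, 1667 and 1497 CPM at day 3 and 586, 394 and 471 CPM at day 9 (-1.72 ± 0.11, adjusted p = 7.4e-07). Eomes, a T-box factor of cytotoxic cells that is also listed as an NK cell marker, was at 10.5, 13.5 and 10.4 CPM at day 3 and 10.999, 11.3 and 7.58 CPM at day 9 (-0.21 ± 0.18, adjusted p = 0.361). The summed level of the 8 NK cell markers was 10.7 to 13.5 CPM at day 3 and 84.96 to 240.5 CPM at day 9. Of the day 9 level Gzma held 144 CPM on average. Klra4 was at 0, Ncr1 and Klra8 each at 0 and 2 counts, and Tyrobp at 1 and 1 count in the groups. Klrb1c had 1 count at day 3 and 30 at day 9, and Fcer1g had 6 and 34. Neither met the low-count filter.

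**Figure D2:**
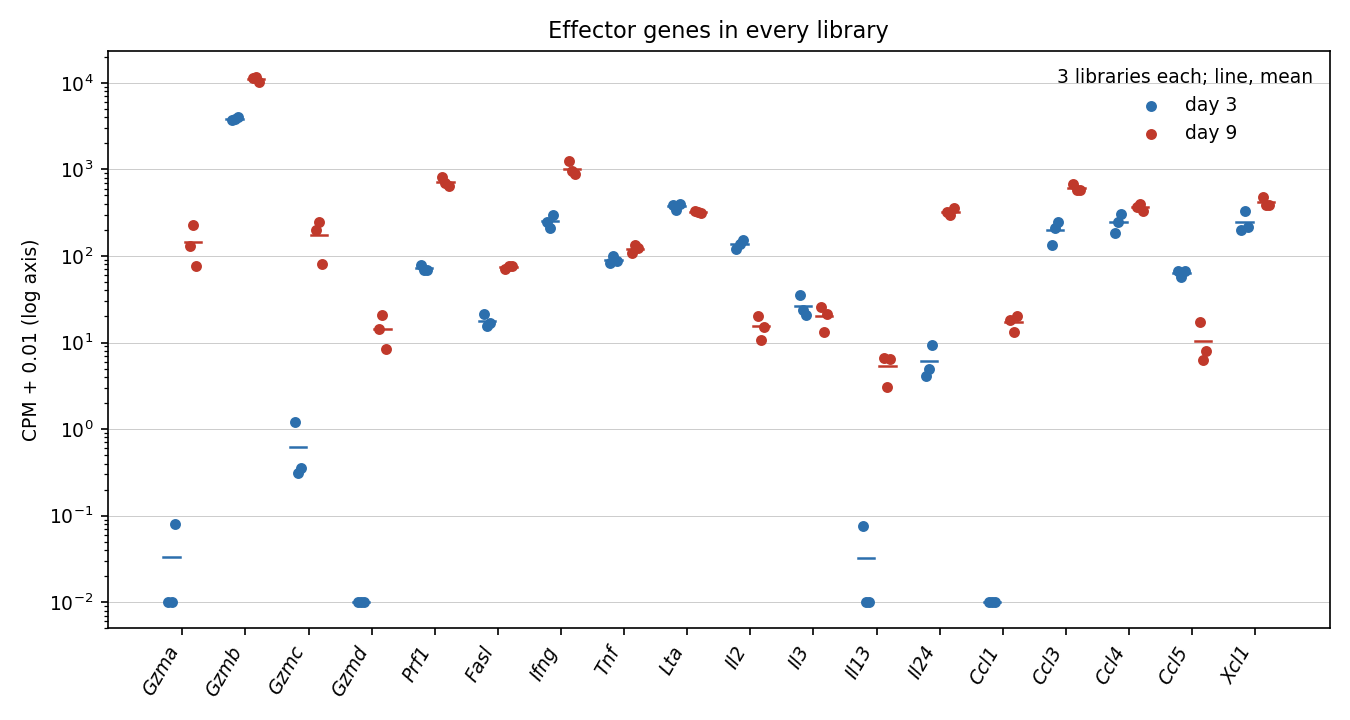
CPM (log axis, offset 0.01) of granzyme, cytokine and chemokine genes in each of the 3 day 3 and 3 day 9 libraries, with a line at the mean. Gzma, Gzmd, Il13 and Ccl1 sit at or near 0 at day 3, Gzmb rises from its day 3 level in every day 9 library, and Il2 and Ccl5 are the genes whose day 9 libraries lie clearly below day 3.

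Among cytokines, Ifng was higher and Il2 lower after restimulation. Ifng, which encodes interferon gamma, was at 246, 209.9 and 298 CPM at day 3 and 1239.8, 953 and 875 CPM at day 9. No library of the groups overlapped, and the change was 2.03 ± 0.14, adjusted p = 1.0e-06, or 4.07-fold. Il2, the T cell growth factor made mainly by newly activated cells, was at 121, 136 and 153 CPM at day 3 and 20.1, 10.6 and 15.3 CPM at day 9. That fall was 8.93-fold (-3.16 ± 0.18, adjusted p = 2.8e-07), with the lowest value in day 9 replicate 2. Tnf, which encodes tumour necrosis factor, was at 82.5, 99.8 and 86.2 CPM at day 3 and 109, 133 and 123 CPM at day 9 and rose by a smaller step (0.44 ± 0.09, adjusted p = 0.00162).

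Lta, which encodes lymphotoxin alpha, was at 385, 335 and 402 CPM at day 3 and 327, 317 and 311 CPM at day 9 (-0.23 ± 0.06, adjusted p = 0.00817). This fall did not pass with all 24 libraries in 1 fit or in limma on unfiltered FPKM, and its adjusted p ran from 5.7e-04 to 0.191 in 16 alternatives. Il3, a growth factor of myeloid cells, was at 35.7, 23.5 and 20.6 CPM at day 3 and 25.7, 13.2 and 21.4 CPM at day 9 (-0.40 ± 0.24, adjusted p = 0.187), and the groups overlapped. Cytokines of other lineages came up as well. Il24, a cytokine of the IL10 family, was at 4.103, 4.88 and 9.23 CPM at day 3 and 319, 297 and 356 CPM at day 9 (5.75 ± 0.19, adjusted p = 8.1e-09), the highest rise among cytokines with counts in every day 3 library. Il13, known from type 2 cells, had 1 count at day 3 and 282 at day 9, a ratio of 247 (95% counting interval 44.03 to 9802). Osm, which encodes oncostatin M, rose to 111, 119 and 119 CPM (1.78 ± 0.08, adjusted p = 7.5e-08), and Lif, a cytokine of the same family, to 176, 195 and 238 CPM (1.55 ± 0.10, adjusted p = 5.5e-07).

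Several cytokines known from other T cell states stayed near the detection limit. Il4 had 1 and 0 counts and Il5 3 and 91 counts, and neither met the low-count filter. Il10, which dampens inflammation, was at 0.199, 0.427 and 1.47 CPM at day 3 and 0.757, 1.42 and 0.3295 CPM at day 9 (0.27 ± 0.70, adjusted p = 0.767), with overlap between the groups. Csf2, which encodes GM-CSF, was at 3.37, 1.71 and 0.769 CPM at day 3 and 1.75, 0.593 and 0.659 CPM at day 9 (-0.97 ± 0.57, adjusted p = 0.18). Of 20 tested cytokines, 11 rose, 5 fell and 4 did not pass, and among the 13 that met the filter at both days 7 rose and 4 fell.

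Chemokine ligands that draw in other immune cells were higher, except Ccl5 and Cxcl10. Ccl3 and Ccl4 are inflammatory chemokines made by activated T cells. Ccl3 was at 135, 209.7 and 248 CPM at day 3 and 676, 581 and 576 CPM at day 9 (1.63 ± 0.17, adjusted p = 2.0e-05), with no overlap, and Ccl4 at 184, 249 and 306 CPM at day 3 and 365, 394 and 329 CPM at day 9 (0.56 ± 0.14, adjusted p = 0.00711). The rise of Ccl4 did not pass with all 24 libraries in 1 fit (adjusted p = 0.109, with a range from 5.1e-06 to 0.109 over 16 alternatives). Xcl1, which attracts cross-presenting dendritic cells, was at 200.5, 332 and 217 CPM at day 3 and 473, 385 and 389 CPM at day 9 (0.73 ± 0.16, adjusted p = 0.00284). Ccl1, the ligand of CCR8, had 0 counts at day 3 and 902 at day 9. Against a 3-count floor for the day 3 group it was 264-fold higher, with 247 as the lower 95% counting limit. Ccl9 was at 3.18, 2.62 and 2.87 CPM at day 3 and 78.8, 52.97 and 51.95 CPM at day 9 (4.41 ± 0.20, adjusted p = 5.7e-08). Ccl5, usually abundant in memory and effector CD8+ cells, was at 66.6, 57.4 and 67.4 CPM at day 3 and 17.1, 6.29 and 7.91 CPM at day 9 and fell (-2.61 ± 0.27, adjusted p = 2.1e-05). In all 5 of 7 tested ligands rose and 2 fell. For the ligands that met the low-count filter at 1 day alone, 1 at each day, it favoured their direction. Of the other 5, 4 rose and 1 fell.

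Inhibitory receptors did not move as a block. Havcr2, which encodes TIM-3, was at 0.199, 0.183 and 0.2796 CPM at day 3 and 34.6, 42.1 and 20.6 CPM at day 9 (7.16 ± 0.39, adjusted p = 2.4e-07), a 143-fold rise without overlap. Pdcd1, which encodes PD-1, was at 60.3, 72.6 and 69.8 CPM at day 3 and 132, 118 and 122 CPM at day 9 (0.88 ± 0.08, adjusted p = 5.7e-06) and rose 1.84-fold. Lag3, whose product binds MHC class II, was at 299, 299 and 284 CPM at day 3 and 172, 143 and 148 CPM at day 9 and fell (-0.93 ± 0.06, adjusted p = 1.1e-06). Both receptors are known to follow T cell receptor signals, and here their groups separated in opposite directions.

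Entpd1, which encodes the ectonucleotidase CD39, was at 2.78, 2.4999 and 3.56 CPM at day 3 and 32.5, 33.2 and 22.7 CPM at day 9 (3.32 ± 0.19, adjusted p = 3.6e-07). Klrc1, the NKG2A receptor, was at 7.94, 12.01 and 6.01 CPM at day 3 and 92.1, 78.8 and 87.2 CPM at day 9 (3.30 ± 0.18, adjusted p = 2.3e-07). Cd244, the SLAM family receptor 2B4, had 3 and 173 counts, a ratio of 50.6 (95% counting interval 17.02 to 248). Ctla4, which competes with CD28 for its ligands, fell slightly to 191, 172 and 191 CPM from 235, 225 and 229.5 CPM (-0.32 ± 0.05, adjusted p = 3.5e-04), Cd160 fell by more (-1.71 ± 0.19, adjusted p = 2.9e-05), and Cd5, a brake on receptor signals, fell (-0.84 ± 0.06, adjusted p = 1.1e-06). Tigit was at 102, 97.6 and 90.9 CPM at day 3 and 91.95, 79.5 and 86.9 CPM at day 9 (-0.17 ± 0.07, adjusted p = 0.0604), and its groups overlapped. Of 19 tested inhibitory receptors, 8 rose, 7 fell and 4 did not pass. Among the 15 that met the low-count filter at both days, 4 rose and 7 fell. The terminal differentiation marker Klrg1 had 9 counts in each group and was not tested.

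Costimulatory receptors were mostly lower. Of 21 tested receptors and ligands of this kind, 12 fell, 5 rose and 4 did not pass, with a median of -0.60. Cd28, the receptor engaged by the culture antibody, was at 169, 152 and 155 CPM at day 3 and 86.02, 79.8 and 80.2 CPM at day 9 (-0.95 ± 0.06, adjusted p = 4.8e-07). Tnfrsf18, which encodes GITR, was at 724, 669 and 693 CPM at day 3 and 260.5, 267 and 269 CPM at day 9 (-1.39 ± 0.04, adjusted p = 3.2e-09), and Tnfrsf4, which encodes OX40, at 566, 527 and 539 CPM at day 3 and 268, 286 and 307 CPM at day 9 (-0.92 ± 0.05, adjusted p = 2.3e-07). Cd226, the activating partner of TIGIT, fell too (-1.38 ± 0.07, adjusted p = 1.7e-07). Against this direction Tnfrsf8, which encodes CD30, was at 4.698, 5.91 and 8.95 CPM at day 3 and 128, 130.1 and 149 CPM at day 9 (4.38 ± 0.17, adjusted p = 2.0e-08).

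Receptors shared with NK cells rose, although most genes of that kind were too low to test. Klrk1, which encodes NKG2D, was at 44.9, 54.4 and 46.4 CPM at day 3 and 224, 229 and 215 CPM at day 9 (2.19 ± 0.07, adjusted p = 7.8e-09), and Klrd1, the CD94 chain that pairs with NKG2 receptors, at 18.4, 17.2 and 18.5 CPM at day 3 and 105, 108 and 97.04 CPM at day 9 (2.52 ± 0.07, adjusted p = 3.7e-09). All 3 day 9 libraries were above all 3 day 3 libraries in both. Of 21 listed receptors and adaptors 6 were tested and all 6 rose. Klrc1, Klrd1 and Klrk1 met the low-count filter at both days. The 3 others, Klrc2 (3.21 ± 0.33) and Klre1 (3.29 ± 0.39) among them, met it through day 9 alone, which favoured a rise. The summed level of the list was 77.1 ± 7.72 CPM at day 3 and 425 ± 9.41 CPM at day 9 (SD, n = 3). Similar sequences within this family may share reads.

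**Figure D3:**
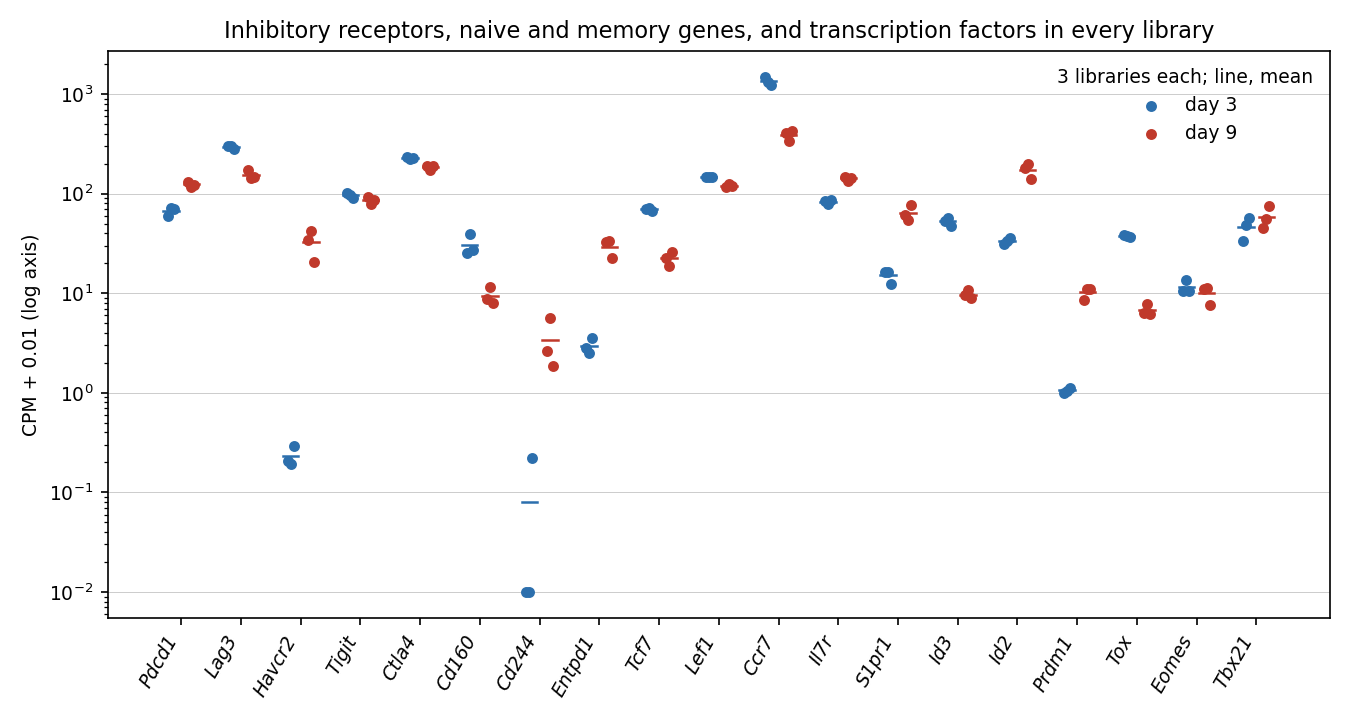
CPM (log axis, offset 0.01) of inhibitory receptors, naive and memory genes and transcription factors in each of the 3 day 3 and 3 day 9 libraries, with a line at the mean. Havcr2, Entpd1, Id2 and Prdm1 are higher at day 9 and Lag3, Cd160, Tcf7, Ccr7, Id3 and Tox lower, without overlap, while Tigit, Eomes and Tbx21 overlap.

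Among transcription factors, Prdm1 and Id2 were higher and Id3 and Tox lower. Prdm1, which encodes Blimp-1, a repressor that drives terminal effector differentiation, was at 0.993, 1.04 and 1.12 CPM at day 3 and 8.497, 10.97 and 11.1 CPM at day 9 (3.27 ± 0.22, adjusted p = 8.0e-07). Id2, an inhibitor of E proteins that favours effector cells, was at 31.2, 33.4 and 35.5 CPM at day 3 and 180.2, 197 and 139 CPM at day 9 (2.37 ± 0.12, adjusted p = 1.2e-07), while its counterpart Id3, linked to memory precursors, was at 53.6, 56.4 and 47.9 CPM at day 3 and 9.54, 10.7 and 8.897 CPM at day 9 (-2.44 ± 0.10, adjusted p = 4.3e-08). The groups did not overlap for any of these 3 genes, and the Id genes moved in opposite directions. Tox, a factor needed for exhausted T cells to persist, was at 38.3, 37.4 and 37.04 CPM at day 3 and 6.29, 7.83 and 6.15 CPM at day 9 and fell (-2.48 ± 0.11, adjusted p = 6.3e-08).

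Tbx21, which encodes T-bet, was at 33.2, 48.4 and 56.96 CPM at day 3 and 45.05, 55.4 and 74.9 CPM at day 9 (0.34 ± 0.20, adjusted p = 0.182), and its groups overlapped. Irf4, which scales with T cell receptor signal strength, was at 263, 219 and 234 CPM at day 3 and 274, 232 and 325 CPM at day 9 (0.21 ± 0.11, adjusted p = 0.117). Hif1a, a factor of the response to low oxygen and of effector metabolism, rose to 753, 806 and 878 CPM from 371, 383 and 415 CPM (1.06 ± 0.06, adjusted p = 2.4e-07), and Runx2 rose as well (1.82 ± 0.10, adjusted p = 3.3e-07). Of 23 tested effector and exhaustion factors, 7 rose, 9 fell and 7 did not pass.

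Genes of naive and memory cells were lower after restimulation. Of 27 tested members 21 fell, 4 rose and 2 did not pass, with a median change of -0.92 against -0.02 for all genes. Ccr7, which brings T cells into lymph nodes, was at 1502, 1317 and 1245 CPM at day 3 and 405, 339 and 422 CPM at day 9 (-1.80 ± 0.08, adjusted p = 7.7e-08). Tcf7, which encodes the memory and stem-like factor TCF-1, was at 70.1, 71.2 and 67.3 CPM at day 3 and 22.5, 18.7 and 25.9 CPM at day 9 (-1.63 ± 0.10, adjusted p = 6.5e-07). Its partner Lef1 fell less (-0.28 ± 0.05, adjusted p = 4.5e-04), at 147, 147 and 146 CPM at day 3 and 118, 124 and 119.6 CPM at day 9. Dapl1, a gene of naive and early memory cells, was at 44.996, 47.4 and 40.5 CPM at day 3 and 3.67, 2.67 and 4.01 CPM at day 9 (-3.68 ± 0.14, adjusted p = 2.1e-08), and Bach2, a repressor of effector genes, fell (-1.56 ± 0.11, adjusted p = 1.3e-06).

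The 4 members that rose were Il7r, S1pr1, Igfbp4 and the progenitor factor gene Myb, the last named after its values were seen (1.25 ± 0.13, adjusted p = 2.0e-05). Il7r, the receptor chain for the survival cytokine IL7, was at 84.3, 78.9 and 87.01 CPM at day 3 and 148, 135 and 145 CPM at day 9 (0.78 ± 0.06, adjusted p = 1.8e-06). S1pr1, the receptor by which lymphocytes leave lymphoid organs, was at 16.5, 16.3 and 12.5 CPM at day 3 and 61.3, 53.9 and 77.8 CPM at day 9 (2.09 ± 0.15, adjusted p = 1.3e-06), and Igfbp4, which binds insulin-like growth factors, rose (1.74 ± 0.11, adjusted p = 6.2e-07). Klf2, a factor that sustains S1pr1, had 2 counts at day 3 and 3 at day 9 and was not tested.

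Readouts of T cell receptor signals were mixed, with Nr4a1, Nr4a3 and Cd69 lower and Egr2 higher. Nr4a1, an orphan nuclear receptor induced within hours of receptor engagement, was at 202, 229 and 221 CPM at day 3 and 45.5, 56.9 and 61.1 CPM at day 9 (-1.99 ± 0.10, adjusted p = 9.6e-08), and Nr4a3 at 24.4, 26.8 and 22.01 CPM at day 3 and 5.35, 7.77 and 8.07 CPM at day 9 (-1.79 ± 0.16, adjusted p = 6.2e-06). Cd69, an early activation antigen, was at 243, 243 and 212 CPM at day 3 and 91.5, 107 and 94.2 CPM at day 9 (-1.25 ± 0.07, adjusted p = 3.6e-07). In contrast Egr2, a factor tied to tolerance and to restimulation, was at 12.1, 14.8 and 13.3 CPM at day 3 and 25.9, 22.7 and 27.9 CPM at day 9 (0.93 ± 0.12, adjusted p = 8.3e-05), whereas Egr1 was at 46.1, 55.2 and 43.1 CPM at day 3 and 32.8, 42.2 and 45.4 CPM at day 9 (-0.26 ± 0.13, adjusted p = 0.109) with overlapping groups. Of 19 tested readouts 3 rose, 7 fell and 9 did not pass, with a median of -0.17. Irf8, induced by activation in CD8+ cells, was among those that fell (-0.93 ± 0.09, adjusted p = 1.1e-05).

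Transcription factors downstream of the receptor showed a change of members rather than of the whole class. Among AP-1 factors 5 of 14 rose and 5 fell. Fos was at 18.6, 18.7 and 14.5 CPM at day 3 and 1.86, 0.652 and 1.59 CPM at day 9 (-3.64 ± 0.27, adjusted p = 1.6e-06), and Batf3, which supports CD8+ memory, at 26.997, 29.6 and 35.9 CPM at day 3 and 122, 119 and 129 CPM at day 9 (2.00 ± 0.09, adjusted p = 8.7e-08). Batf, a partner of IRF4 in effector cells, rose (0.81 ± 0.07, adjusted p = 5.8e-06), as did Atf3 (0.84 ± 0.10, adjusted p = 5.5e-05). NF-kB genes, in contrast, went one way: 11 of 13 fell and 0 rose, with a median of -0.60. Rel, the subunit c-Rel that drives Il2, was at 95.2, 86.3 and 85.3 CPM at day 3 and 33.8, 30.7 and 35.4 CPM at day 9 (-1.42 ± 0.08, adjusted p = 2.0e-07), Relb at 79.3, 80.1 and 80.9 CPM at day 3 and 35.97, 40.1 and 37.2 CPM at day 9 (-1.09 ± 0.07, adjusted p = 4.3e-07) and Tnfaip3, which encodes the feedback inhibitor A20, at 129.6, 140.1 and 140.1 CPM at day 3 and 51.04, 47.9 and 64.4 CPM at day 9 (-1.33 ± 0.10, adjusted p = 1.7e-06). Summed over the list, NF-kB genes were at 1890.3 ± 68.4 CPM at day 3 and 1305 ± 70.6 CPM at day 9 (SD, n = 3).

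The receptor complex and its proximal kinases changed by smaller steps. Of 24 tested genes 12 fell and 6 rose, with a median of -0.14, and 0 rose and 1 fell at least 2-fold. The 1 that did was Trat1, a transmembrane adaptor, at 16.3, 16.6 and 17.8 CPM at day 3 and 3.03, 3.03 and 4.17 CPM at day 9 (-2.30 ± 0.16, adjusted p = 1.1e-06). The ubiquitin ligase Cblb, a brake on T cell activation, fell (-0.55 ± 0.05, adjusted p = 5.9e-06). Lck, the kinase bound to CD8, rose slightly (0.28 ± 0.04, adjusted p = 1.0e-04). Among calcium and NFAT genes 7 of 19 rose and 7 fell, with rises of the calcium pump Atp2b4 (2.41 ± 0.14, adjusted p = 3.7e-07) and of Nfatc2 (0.92 ± 0.12, adjusted p = 8.5e-05). The fallen calcium genes numbered 4 without WT_Ctrl_Day3 replicate 2, without WT_Ctrl_Day9 replicate 1 or without WT_Ctrl_Day9 replicate 3. By limma on unfiltered FPKM they numbered 3. The fallen AP-1 factors numbered 3 without WT_Ctrl_Day3 replicate 2, WT_Ctrl_Day9 replicate 1 or WT_Ctrl_Day9 replicate 3. They also numbered 3 by the DESeq2 Wald test and by limma on filtered FPKM, where 11 were tested.

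Receptors for IL2 were higher. Il2ra, the high-affinity alpha chain CD25, was at 669, 655 and 684 CPM at day 3 and 1537, 1499 and 1718 CPM at day 9 (1.24 ± 0.05, adjusted p = 2.1e-08), and Il2rb, the beta chain shared with the IL15 receptor, at 367, 362 and 379.8 CPM at day 3 and 666, 706 and 676 CPM at day 9 (0.88 ± 0.04, adjusted p = 3.0e-08). The kinase gene Pim2, a growth and survival kinase, was at 281, 272 and 261 CPM at day 3 and 43.3, 37.1 and 39.8 CPM at day 9 and fell 6.78-fold (-2.76 ± 0.06, adjusted p = 1.0e-09). Il4ra rose (0.73 ± 0.04, adjusted p = 4.8e-07) and Il10ra fell (-1.50 ± 0.09, adjusted p = 3.6e-07), each without overlap. Of 31 tested interleukin receptor and signalling genes 14 rose and 13 fell.

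Ccr1 and Ccr2, receptors that lead cells to inflamed tissue, were higher. Ccr2, which follows monocyte chemoattractants, was at 0.331, 0.488 and 2.03 CPM at day 3 and 26.01, 36.4 and 19.002 CPM at day 9 (4.87 ± 0.43, adjusted p = 5.9e-06), and Ccr1 had 1 count at day 3 and 482 at day 9, a ratio of 423 (95% counting interval 75.5 to 16730.1). Day 9 replicate 3 was the lowest of its group in both genes. Cxcr3, a receptor of effector cells, was at 13.4, 14.1 and 11.04 CPM at day 3 and 12.8, 11.2 and 10.98 CPM at day 9 (-0.14 ± 0.14, adjusted p = 0.398), with overlap. Of 16 tested trafficking receptors 7 rose and 4 fell, Ccr7 among the latter. Only 11 met the filter at both days, of which 5 rose and 3 fell. Of the rest 2 met it through day 9 alone and 3 through day 3 alone, which favoured their direction.

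Cd44, Itgb2, Cd2 and Cd48 were higher. Cd44, the hyaluronan receptor absent from the sorted naive cells, was at 138, 132 and 138 CPM at day 3 and 395, 305 and 379 CPM at day 9 (1.40 ± 0.08, adjusted p = 3.7e-07). Itgb2, the beta chain of LFA-1, was at 323, 310.3 and 297 CPM at day 3 and 541, 544 and 498 CPM at day 9 (0.77 ± 0.05, adjusted p = 4.0e-07), and Cd2 (0.63 ± 0.04, adjusted p = 7.7e-07) and its ligand Cd48 (1.06 ± 0.06, adjusted p = 1.6e-07) rose as well. Itgae, which encodes the CD103 chain of tissue-resident cells, was at 2.12, 1.28 and 0.349 CPM at day 3 and 0.524, 0.415 and 0.604 CPM at day 9 (-1.27 ± 0.58, adjusted p = 0.0868), near the detection limit. Of 18 tested genes 10 rose and 4 fell, and the falls numbered 2 without WT_Ctrl_Day3 replicate 1, WT_Ctrl_Day3 replicate 2 or WT_Ctrl_Day9 replicate 2. By limma on unfiltered FPKM the falls numbered 2 as well.

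Annexins, S100 proteins, galectins and cytoskeletal genes rose almost as a whole. Of 23 tested members 21 rose and 1 fell, with a median of 0.78, and 10 rose at least 2-fold. Of the 21 rises 2 were of members that met the filter through day 9 alone, which favoured a rise. At both days 21 met it, of which 19 rose and 1 fell. Lgals1, which encodes galectin 1, was at 221, 231 and 229 CPM at day 3 and 1170.1, 1159 and 1168 CPM at day 9 (2.36 ± 0.03, adjusted p = 2.7e-11), and Lgals3, galectin 3, at 15.2, 10.9 and 13.4 CPM at day 3 and 287, 237 and 224 CPM at day 9 (4.24 ± 0.13, adjusted p = 4.1e-09). The intermediate filament gene Vim was at 590.3, 574 and 615 CPM at day 3 and 1998, 2070.3 and 2014 CPM at day 9 (1.77 ± 0.03, adjusted p = 3.2e-10). Anxa2 (1.01 ± 0.04, adjusted p = 4.6e-08) and Flna, the actin crosslinker filamin A (1.03 ± 0.05, adjusted p = 1.0e-07), rose about 2-fold, or 2.02-fold and 2.04-fold. The summed level of the list was 3364 ± 59.2 CPM at day 3 and 7858 ± 169 CPM at day 9 (SD, n = 3), while S100a8 and S100a9, which mark neutrophils, were at 0.

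Genes of the type I interferon response had the lowest median change of the 44 lists. Type I interferons act through the factor ISGF3, which binds interferon-stimulated response elements in promoters and turns on antiviral genes. Of 29 tested members 25 fell, 0 rose and 4 did not pass; 19 fell at least 2-fold, and the median was -1.35. The low-count filter favoured a fall in the 4 members that met it through the day 3 libraries alone. Of the 25 that met it at both days 21 fell and 0 rose. Ifit1, which binds viral RNA, was at 68.4, 61.8 and 69.5 CPM at day 3 and 2.39, 1.48 and 1.37 CPM at day 9 (-5.25 ± 0.16, adjusted p = 4.1e-09). Ifit3, its partner, was at 19.7, 12.7 and 19.3 CPM at day 3 and 0.466, 0.356 and 0 CPM at day 9 (-5.96 ± 0.42, adjusted p = 1.2e-06), and Isg15, a ubiquitin-like modifier, at 81.9, 75.5 and 84.4 CPM at day 3 and 7.62, 8.84 and 7.91 CPM at day 9 (-3.31 ± 0.09, adjusted p = 2.8e-09). All day 9 libraries of these 3 genes lay below all day 3 libraries.

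Rsad2, which encodes the antiviral enzyme viperin, was at 23.9, 21.2 and 12.999 CPM at day 3 and 1.16, 0.534 and 1.76 CPM at day 9 (-4.05 ± 0.34, adjusted p = 3.9e-06), and Usp18, which removes ISG15 and restrains the receptor, at 79.8, 80.9 and 74.6 CPM at day 3 and 22.1, 23.6 and 23.1 CPM at day 9 (-1.77 ± 0.07, adjusted p = 2.4e-08). Oasl1 (-4.48 ± 0.22) and Oasl2 (-3.96 ± 0.37), of the oligoadenylate synthetase family with similar copies, and Ifi27l2a (-1.31 ± 0.05) fell as well. Cxcl10, a CXCR3 ligand induced by interferons, was at 16.9, 21.9 and 14.6 CPM at day 3 and 1.11, 1.42 and 0.384 CPM at day 9 (-4.20 ± 0.31, adjusted p = 1.7e-06). Summed over the list, transcripts were at 2014 ± 8.499 CPM at day 3 and 1047 ± 27.9 CPM at day 9 (SD, n = 3), or 51.98% of the day 3 level. Genes of the interferon gamma response and of antigen presentation were divided, with 8 rising and 14 falling of 27: Tap1, the peptide transporter (-0.56 ± 0.04, adjusted p = 2.8e-06), and Cd74, the invariant chain (-3.03 ± 0.09, adjusted p = 4.3e-09), fell, and the GTPase gene Gbp4, of a family with similar copies, rose (0.82 ± 0.08, adjusted p = 1.1e-05).

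Promoter sequence was read for the interferon list because its members moved together. In RefSeq promoter windows of GRCm38.p6, from 250 bases before to 50 bases after a start, the letters GAAANNGAAA were searched on both strands, a pattern that sites of this kind share and that can overlap itself. They occurred in 3.44% of 32851 windows, in 3.95% of 9443 tested genes with a window and in 11 of 20 list members with a window (55%). All 11 were among the 17 of these members that fell, and none of the 3 that did not pass held them. Oasl1 and Oasl2, among the largest falls, have windows without these letters. Of all 373 tested genes with the letters, the 11 list members included, 142 fell and 81 rose. Over all 11740 genes tested 26.8% fell and 25.9% rose, and shares over the genes with a window were not computed. The windows shown are of 4 list members that fell and hold the letters and of Cxcl10, each a stretch of 60 bases upstream of the start, 5′ to 3′ along the gene's strand, and capitals mark the searched letters or their reverse complement:
Ifit1 (chr19:34640779-34640838, plus strand): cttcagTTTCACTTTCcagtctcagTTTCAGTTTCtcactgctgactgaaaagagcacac
Ifit3 (chr19:34583382-34583441, plus strand): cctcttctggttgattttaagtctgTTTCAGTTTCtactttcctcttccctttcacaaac
Isg15 (chr4:156200850-156200909, minus strand): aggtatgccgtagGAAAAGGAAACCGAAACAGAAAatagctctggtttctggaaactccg
Rsad2 (chr12:26456538-26456597, minus strand): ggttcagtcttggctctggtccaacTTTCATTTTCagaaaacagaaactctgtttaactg
Cxcl10 (chr5:92349068-92349127, minus strand): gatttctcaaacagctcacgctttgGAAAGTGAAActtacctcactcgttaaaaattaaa
Isg15 carries the letters 3 times in overlap and Ifit1 carries them at separate places, while Cxcl10 has 1 match farther from the start, which begins 213 bases before it. A match describes letters only; whether a factor bound there was not measured, and the deposited tables used the mm9 build.

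Genes of DNA synthesis rose modestly while mitotic genes did not move as a group. Of 40 tested replication genes 24 rose and 3 fell, with a median of 0.17. Rrm2, the regulated subunit of ribonucleotide reductase, was at 272, 299 and 294 CPM at day 3 and 599, 622 and 577 CPM at day 9 (1.06 ± 0.05, adjusted p = 4.3e-08), and Rfc3, of the clamp loader, at 73.3, 75.5 and 74.3 CPM at day 3 and 147, 148 and 143 CPM at day 9 (0.97 ± 0.05, adjusted p = 1.2e-07), while Rfc4 of the same complex fell to 64.7, 67.1 and 61.2 CPM from 100.4, 102 and 101 CPM (-0.66 ± 0.06, adjusted p = 5.6e-06). Of 36 mitotic genes 7 rose, 7 fell and 22 did not pass, and without WT_Ctrl_Day9 replicate 1 the falls numbered 14. With all 24 libraries in 1 fit 4 rose and 4 fell, and by limma on unfiltered FPKM 6 rose and 4 fell. Mki67, the proliferation marker Ki-67, was at 123, 126 and 119 CPM at day 3 and 119, 115 and 112 CPM at day 9 (-0.09 ± 0.05, adjusted p = 0.138).

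Ccnd2, Ccnd3 and Ccne1, cyclins that act in G1, were higher. Ccnd2, cyclin D2, was at 439.5, 435 and 426 CPM at day 3 and 776, 676 and 713 CPM at day 9 (0.74 ± 0.05, adjusted p = 6.7e-07), Ccnd3 rose (0.64 ± 0.04, adjusted p = 4.1e-07), and Ccne1, cyclin E1, rose (0.65 ± 0.06, adjusted p = 5.4e-06). The inhibitor gene Cdkn1b, which encodes p27, was at 30.1, 24.5 and 24.4 CPM at day 3 and 9.31, 8.84 and 9.45 CPM at day 9 (-1.52 ± 0.12, adjusted p = 2.6e-06), and the antiproliferative gene Btg1 at 58.3, 55.1 and 53.5 CPM at day 3 and 17.98, 18.6 and 19.5 CPM at day 9 (-1.57 ± 0.08, adjusted p = 1.2e-07). Cdkn1a, which encodes p21, was at 305, 324 and 318 CPM at day 3 and 320.4, 305 and 306 CPM at day 9 (-0.02 ± 0.04, adjusted p = 0.634), with overlap. In this list 13 of 27 rose and 4 fell. Survival and death genes leaned the other way, with 15 of 24 falling and 5 rising. Among them the death receptor Fas was at 129.7, 117 and 111 CPM at day 3 and 36.7, 30.5 and 35.7 CPM at day 9 (-1.80 ± 0.09, adjusted p = 9.6e-08), Bcl2l1, which encodes BCL-XL, fell (-0.72 ± 0.07, adjusted p = 8.2e-06), Cflar, the caspase-8 inhibitor c-FLIP, fell (-0.68 ± 0.06, adjusted p = 4.5e-06), and Casp8 (0.59 ± 0.05, adjusted p = 2.6e-06) rose.

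Ribosome production genes and ribosomal protein genes went in opposite directions. Of 31 tested Myc and ribosome biogenesis genes 23 rose and 4 fell, with a median of 0.41. Myc, the growth factor-induced regulator of this class, was at 478, 517 and 497 CPM at day 3 and 647, 649.8 and 686 CPM at day 9 (0.41 ± 0.04, adjusted p = 1.1e-05), and its relative Mycn at 0.529, 0.976 and 0.559 CPM at day 3 and 25.7, 26.1 and 24.3 CPM at day 9 (5.17 ± 0.19, adjusted p = 1.7e-08). The assembly factors Bop1 (0.82 ± 0.04, adjusted p = 1.5e-07), Nop2 (0.88 ± 0.05, adjusted p = 4.4e-07) and Rrp9 (0.92 ± 0.06, adjusted p = 6.4e-07) rose, and Mxd1, which opposes Myc, fell (-1.38 ± 0.09, adjusted p = 7.8e-07). Of 49 cytosolic ribosomal proteins 44 fell and 1 rose, with a median of -0.32 and none past 2-fold. Rplp0, of the ribosomal stalk, was at 5015, 5149 and 4969.7 CPM at day 3 and 3796, 3685 and 3765 CPM at day 9 (-0.43 ± 0.02, adjusted p = 2.4e-07), and Rps19 at 1562, 1656 and 1622 CPM at day 3 and 1106, 1130.2 and 1099 CPM at day 9 (-0.54 ± 0.03, adjusted p = 2.7e-07). Ribosomal protein genes have many pseudogene copies that may share reads, and their summed level was 78792 ± 1601 CPM at day 3 and 63155 ± 932 CPM at day 9 (SD, n = 3).

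Host genes of small nucleolar RNAs, spliced transcripts that decay by translation-coupled surveillance, fell with the ribosomal proteins: 9 of 11 fell and 2 rose. Gas5 was at 601, 601 and 580.5 CPM at day 3 and 348, 339 and 337 CPM at day 9 (-0.80 ± 0.03, adjusted p = 3.4e-08), Snhg1 at 135, 166 and 145 CPM at day 3 and 37.7, 41.6 and 41.7 CPM at day 9 (-1.88 ± 0.08, adjusted p = 4.8e-08) and Snhg12 at 70.3, 74.9 and 67.9 CPM at day 3 and 17.9, 18.98 and 18.4 CPM at day 9 (-1.95 ± 0.07, adjusted p = 2.0e-08). The groups were well apart in each.

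Genes of the integrated stress response and amino acid supply were lower. Of 25 tested stress, serine and one-carbon genes 17 fell and 3 rose. Ddit3, which encodes the stress factor CHOP, was at 92.4, 100.2 and 95.7 CPM at day 3 and 24.9, 22.7 and 26.5 CPM at day 9 (-1.96 ± 0.08, adjusted p = 2.1e-08), and Trib3, its target, at 126, 129 and 124 CPM at day 3 and 46.7, 53.8 and 48.2 CPM at day 9 (-1.35 ± 0.06, adjusted p = 9.4e-08). Mthfd2, a mitochondrial folate enzyme, fell to 317, 318 and 318 CPM from 515, 525 and 487 CPM (-0.68 ± 0.04, adjusted p = 2.3e-07). Of 17 nutrient transporters 8 fell and 2 rose, among the falls Slc3a2, the heavy chain of the leucine transporter (-0.63 ± 0.04, adjusted p = 5.5e-07), and Slc7a1, which carries arginine (-0.54 ± 0.05, adjusted p = 8.6e-06).

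Lipid synthesis and protein folding genes were higher. Of 30 sterol and fatty acid genes 25 rose and 0 fell, with a median of 0.44. Fasn, fatty acid synthase, was at 125, 136 and 128 CPM at day 3 and 282, 307 and 331 CPM at day 9 (1.24 ± 0.06, adjusted p = 1.1e-07), Scd1, a desaturase, at 60.4, 63.5 and 61.6 CPM at day 3 and 131, 129 and 135 CPM at day 9 (1.09 ± 0.05, adjusted p = 9.9e-08), and Hmgcs1, an early enzyme of the mevalonate pathway, rose (0.83 ± 0.06, adjusted p = 9.9e-07). Of 20 genes of the unfolded protein response 13 rose and 2 fell: the endoplasmic reticulum chaperones Calr (0.86 ± 0.04, adjusted p = 5.1e-08), Hsp90b1 (0.61 ± 0.03, adjusted p = 5.6e-08) and Pdia3 (0.61 ± 0.04, adjusted p = 5.8e-07) rose, and Herpud1 of the degradation machinery fell (-0.73 ± 0.05, adjusted p = 6.5e-07).

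The proteasome list had 24 rises and 2 falls among 31 members, all below 2-fold, with a median of 0.22 and Psmd13 at 151, 155 and 149 CPM at day 3 and 242, 237 and 230.3 CPM at day 9 (0.64 ± 0.04, adjusted p = 6.8e-07). The falls numbered 0 without WT_Ctrl_Day3 replicate 1 and 1 without WT_Ctrl_Day3 replicate 2 or any day 9 library. They numbered 0 with all 24 libraries in 1 fit. With DESeq2 size factors, without the low-count filter, by the DESeq2 Wald test and by limma they numbered 1. Heat shock proteins had 8 rises and 2 falls of 14; the cytosolic chaperone Hspa8 rose (0.37 ± 0.03, adjusted p = 1.9e-06) and its mitochondrial relative Hspa9 fell (-0.45 ± 0.03, adjusted p = 1.7e-06).

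More glycolysis genes fell than rose, and respiratory chain genes were mixed. Of 30 glycolysis and hypoxia genes 17 fell and 5 rose. Slc2a3, the glucose transporter GLUT3, was at 295, 273 and 269.98 CPM at day 3 and 121, 123 and 97.3 CPM at day 9 (-1.30 ± 0.08, adjusted p = 5.7e-07), and Aldoa, an abundant aldolase, at 3258, 3098 and 3069.7 CPM at day 3 and 2324, 2351 and 2360.4 CPM at day 9 (-0.42 ± 0.03, adjusted p = 7.8e-07), while Pgam1, a later enzyme of the pathway, rose (0.33 ± 0.03, adjusted p = 6.5e-06). Of 41 respiratory chain genes 12 rose, 5 fell and 24 did not pass, with Cycs, cytochrome c, up (0.57 ± 0.04, adjusted p = 7.5e-07) and Ndufa6 of complex I down (-0.49 ± 0.05, adjusted p = 2.6e-05).

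**Figure D4:**
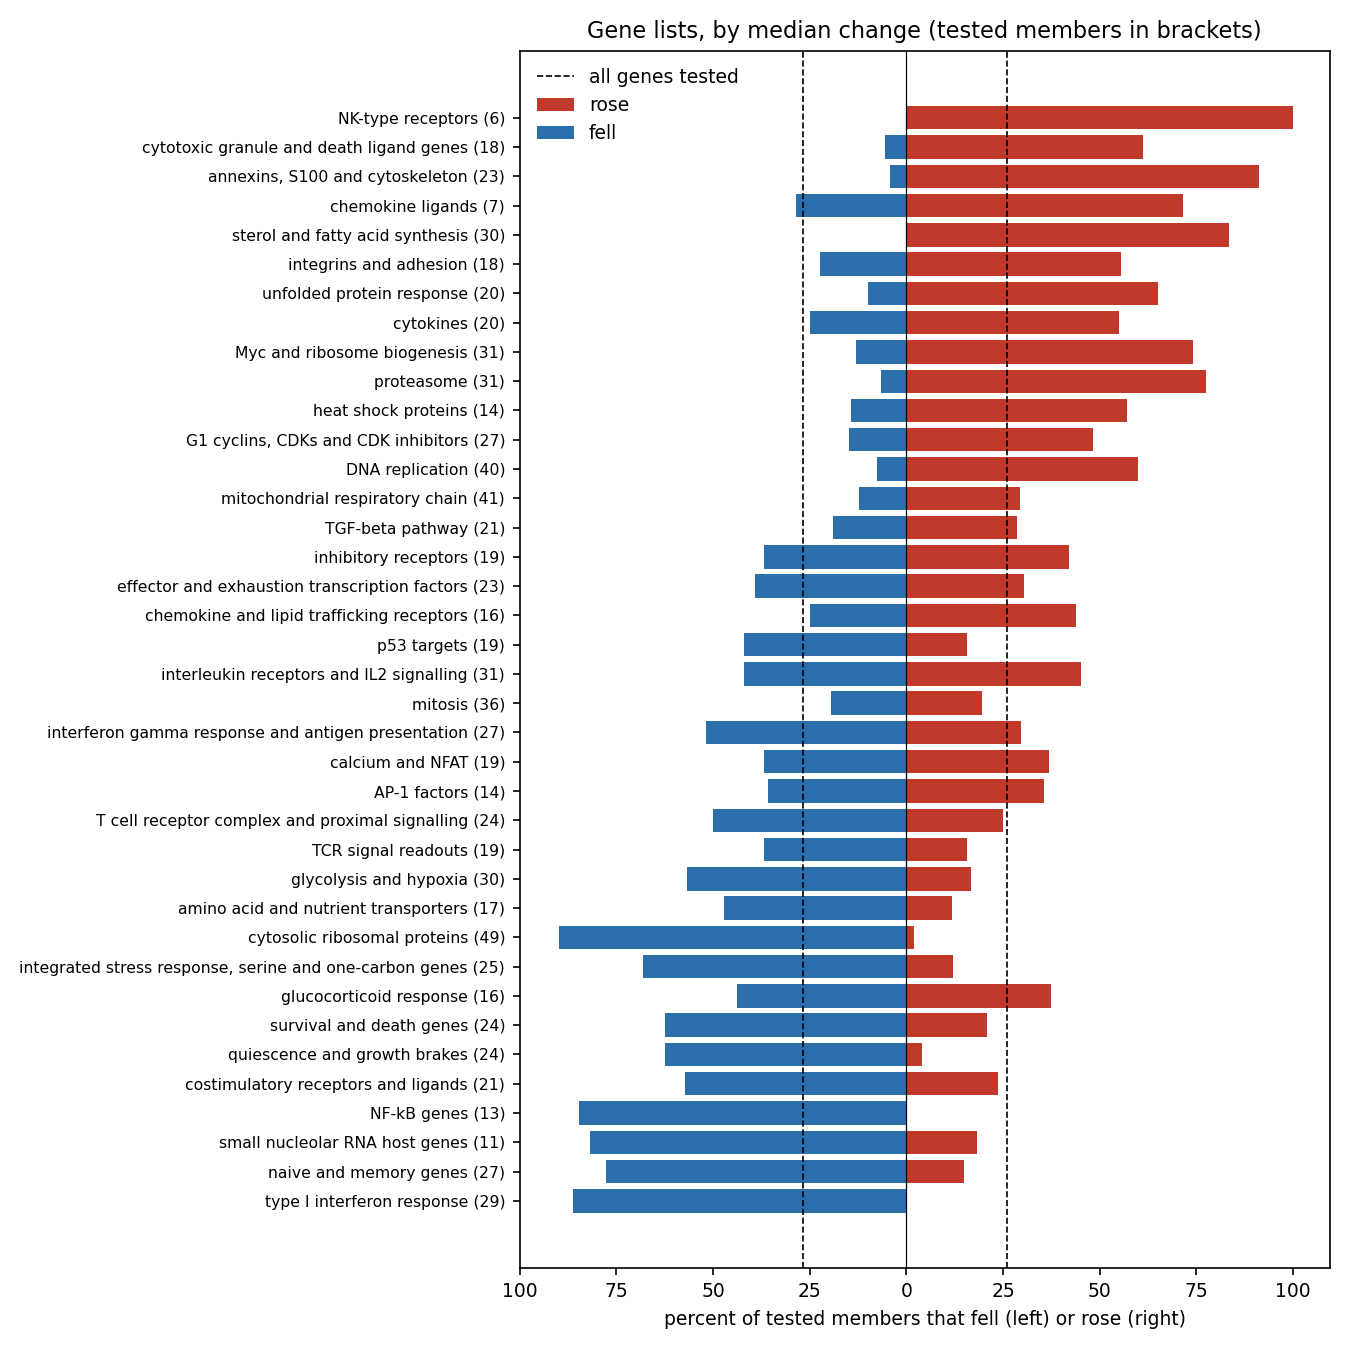
Percent of tested members that fell (left) or rose (right) in each gene list, day 9 against day 3, ordered by median change, with the number tested in brackets; dashed lines show all genes tested (26.8% fell, 25.9% rose). Annexins, sterol synthesis, proteasome and ribosome biogenesis genes reach far to the right, and type I interferon, ribosomal protein and NF-kB genes far to the left.

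Genes known to respond to glucocorticoids were divided, although no glucocorticoid was added to these cultures. Nr3c1, the receptor gene, was at 17.3, 19.02 and 15.4 CPM at day 3 and 15.2, 16.5 and 16.1 CPM at day 9 (-0.11 ± 0.11, adjusted p = 0.422), with overlapping groups. Tsc22d3, the leucine zipper gene GILZ, was at 67.8, 56.5 and 55.5 CPM at day 3 and 23.3, 18.2 and 21.4 CPM at day 9 and fell (-1.51 ± 0.11, adjusted p = 1.6e-06), and Dusp1, a phosphatase, fell (-2.07 ± 0.11, adjusted p = 2.4e-07). The metallothionein genes Mt1 and Mt2, which also respond to zinc and other metals and are similar in sequence, rose, Mt1 to 232, 237 and 254 CPM from 21.8, 23.6 and 27.3 CPM (3.32 ± 0.08, adjusted p = 1.5e-09) and Mt2 (4.28 ± 0.15, adjusted p = 1.4e-08). In all 6 of 16 rose and 7 fell.

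The same contrast was measured in WT cells cultured with 10 nM dexamethasone (Dex), a synthetic glucocorticoid, with 3 libraries at each day. None of these libraries entered the untreated comparison, but day, history and title letter go together in them as well. In the Dex libraries 6159 of 11786 genes passed (52.3%), 3132 rising (26.6%) and 3027 falling (25.7%); scaled by library totals 2474 rose and 3760 fell. Of 11492 genes tested in both, 6063 passed in untreated and 6029 in Dex cells, and 3729 in both. Of those, 2368 went the same way (39.1% of the untreated and 39.3% of the Dex calls) and 1361 the opposite way. Of 1345 genes that changed at least 2-fold in untreated cells, 799 (59.4%) changed the same way with Dex and 82 the opposite way. Across the 11492 genes, which are not independent replicates, Pearson's r of the changes was 0.63.

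Prf1, Havcr2, Ccr7, Tcf7 and Isg15 changed in the same direction in both cultures. Prf1 changed by 2.22 ± 0.08 in Dex cells, Havcr2 by 7.82 ± 0.26, Ccr7 by -2.01 ± 0.05, Tcf7 by -1.50 ± 0.09 and Isg15 by -3.08 ± 0.11. Of 30 members of the type I interferon list tested in Dex cells 26 fell and 1 rose, with a median of -1.22, and of 22 annexin and cytoskeleton genes 20 rose.

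Growth genes went the other way in Dex cells. Of replication genes 38 fell and 1 rose there, of ribosome biogenesis genes 26 fell and 3 rose, of proteasome genes 27 fell and 1 rose, and of ribosomal proteins 37 rose and 2 fell (31 and 3 when scaled by library totals). Where the difference between the changes was tested as an interaction over the 12 libraries, 5380 of 12197 genes passed (44.1%). For Rrm2 the untreated change minus the Dex change was 1.95 ± 0.09, adjusted p = 2.1e-10, with Dex libraries at 294, 278 and 268 CPM at day 3 and 137, 165 and 155 CPM at day 9. For Rps19 it was -0.77 ± 0.05, adjusted p = 2.8e-09, and for Psmd6, a proteasome subunit, 1.30 ± 0.08, adjusted p = 3.2e-09. Gzmb rose in both and more without Dex (difference 0.88 ± 0.07, adjusted p = 2.2e-08), whereas for Pdcd1 the difference did not pass (0.20 ± 0.14, adjusted p = 0.263).

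**Figure D5:**
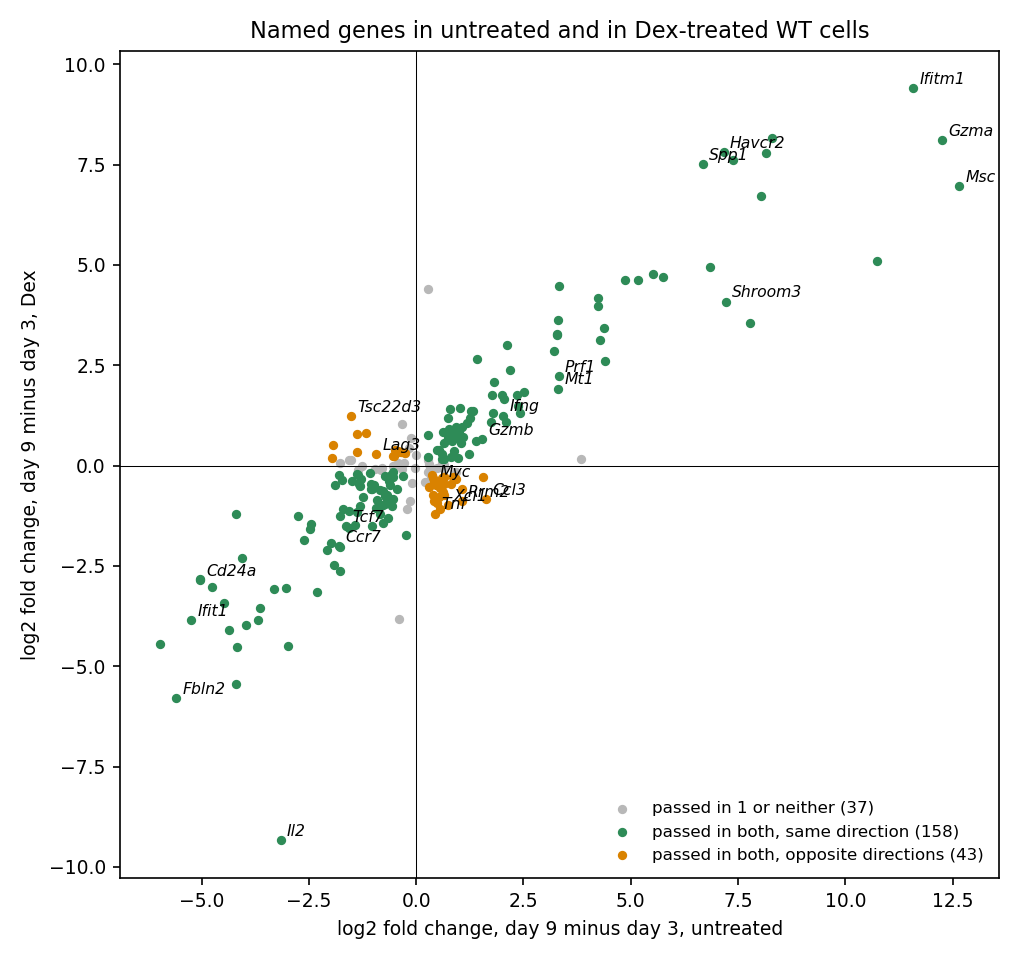
Log2 fold change (day 9 minus day 3) of 238 named genes tested in both, in untreated cells (horizontal axis) and in Dex-treated cells (vertical axis). In 158 genes both passed in the same direction and in 43 in opposite directions, Tsc22d3, Lag3, Ccl3, Xcl1, Tnf, Myc and Rrm2 among the latter. Most named genes were chosen for a low p or a large change in untreated cells. Of all 11492 genes tested in both, 2368 passed in the same direction and 1361 in opposite directions. Fitted changes of genes at 0 to 3 counts in a group are not bounds.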

How the data were processed

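Of 24 RNA libraries from mouse CD8+ T cell cultures, 6 were compared and 6 of Dex-treated cells were set beside them. The authors deposited a table of RSEM estimated counts, not normalized, and FPKM values were deposited by the authors with TMM scaling, per their column names. The submitters' processing notes name TopHat, RSEM, DESeq and the mm9 build without roles. Both tables hold 23366 genes, identified by symbol. Reads were pairs of 38 nt without molecular identifiers, so intervals cover counting error only, and strand use is not given in the sources used here.

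After rounding to whole numbers, counts went into edgeR 4.0.16 under R 4.3.3 for its quasi-likelihood F-test (TMM, filterByExpr with minimum count 10 and minimum total 15, prior count 0.125), with Benjamini-Hochberg adjustment over all genes tested. The interaction used 12 libraries. Lists were described by counts and medians. The members, the 44 lists and the genes to name were chosen with earlier results of these data known. The rule for naming took 63 fixed genes, the lowest-p members of every list (at most 5 per list), and the 15 greatest changes in each direction among called genes that reached 10 CPM in a group and whose groups were fully separated, 250 genes in all; the few others are said to be chosen after their values were seen. The lists cover the gene groups of the report and the closing section and markers of CD8 and CD4 T cells, B cells, myeloid, NK and erythroid cells. Of 926 symbols 924 were found, 4 under another symbol.

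Alternatives were DESeq2 size factors, library totals, no filter on low counts, DESeq2 1.42.0 (Wald test), limma 3.58.1 on log2 of FPKM plus 1 (kept where either group averaged 1 FPKM or more), plus 0.1 or unfiltered, a joint fit of all 24 libraries, a block on replicate number, Rn45s left out, and each library left out. Leave-one-out fits pooled the spread of the smaller group with that of the other. Tested on simulated data, the untreated fit recovered 77%, 98% and 100% of genes changed 1.5-fold, 2-fold and 4-fold. Those were 100, 50 and 50 of 11599 genes, and 6.38% of the fit's calls were false. The Dex fit recovered 85%, 98% and 100%, with 8.91% of its calls false. The interaction fit recovered 55%, 86% and 100%, with 6.92% of its calls false. A larger share of changed genes, such as the 52.7% called in untreated cells, was not tested. Promoter sequences are from RefSeq (GRCm38.p6), since no mm9 genome was used here; protein sequences were not used here. Plots were made in Python 3.11.15 with matplotlib 3.10.9.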

Additional observations from a re-analysis of the deposited data

Results flagged for a closer look

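Between untreated and Dex-treated cultures the day 9 minus day 3 changes differed for 5380 of 12197 genes, by the interaction test over 12 libraries. Of 63 fixed genes, 8 passed in opposite directions in the cultures and had a difference that passed. Over all 11492 genes tested in both cultures, 1361 passed in opposite directions. Whether the 8 exceed that share was not tested. Values are the untreated change minus the Dex change, in log2.

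Tnf rose without Dex (0.44 ± 0.09) and fell with it (-1.20 ± 0.13), a difference of 1.65 ± 0.18, adjusted p = 1.2e-06. Xcl1 rose without Dex (0.73 ± 0.16) and fell with it (-0.98 ± 0.17), a difference of 1.73 ± 0.28, adjusted p = 9.4e-05. For Ccl3 the changes were 1.63 ± 0.17 and -0.84 ± 0.20, a difference of 2.48 ± 0.32, adjusted p = 9.7e-06, and for Ccl4 0.56 ± 0.14 and -1.08 ± 0.21, a difference of 1.66 ± 0.31, adjusted p = 4.1e-04. Myc differed by 0.83 ± 0.06, adjusted p = 1.8e-08, with changes of 0.41 ± 0.04 and -0.40 ± 0.05.

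Lag3 fell without Dex (-0.93 ± 0.06) and rose with it (0.29 ± 0.06), a difference of -1.20 ± 0.09, adjusted p = 4.1e-08. Tsc22d3, a direct target of the glucocorticoid receptor, changed by -1.51 ± 0.11 and 1.23 ± 0.08, a difference of -2.73 ± 0.15, adjusted p = 1.0e-09. Rn45s, the ribosomal RNA precursor, changed by -0.26 ± 0.03 and 0.33 ± 0.04, a difference of -0.57 ± 0.06, adjusted p = 4.9e-07. Dex libraries of Tsc22d3 were at 200.2, 174 and 207 CPM at day 3 and 492, 397 and 479 CPM at day 9.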

How the results depend on the processing

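The counts of genes called without a fold limit, in each direction, stayed within 1.5 times in every alternative and in all 3 comparisons. Counts past 2-fold did not: by limma on log2(FPKM + 1) rises and falls went from 669 and 796 to 335 and 281 in untreated cells, from 893 and 486 to 433 and 261 in Dex cells and, for the difference, from 548 and 853 to 411 and 345. For untreated cells the count was 5541 to 5774 with each library left out and 5700 to 6440 otherwise, against 6184. With library totals 2869 rose and 3322 fell, with a median of all genes of -0.04, and in Dex cells 39.7% of calls were rises against 50.9%. Correlations of same-numbered deviations across the days were 0.10, -0.02 and 0.04, and those of other pairs ran from -0.09 to 0.06. So few values cannot tell whether the shared numbers mark paired libraries. With the replicate block 6422 genes passed (3186 rose, 3236 fell), of which 6076 were among the 6184. Of 230 named genes called, 4 lost the call in any alternative (Ccl4, Lta, Cd14 and Igj). Of 16 tested but not called 6 gained one (Egr1, Il3, Irf4, Itgae, Tbx21 and Tigit), and the cause was not tested. Most named genes were chosen for a low p or a large change in the main fit, which favoured keeping the call. Of all 6184 calls, between 5353 (without WT_Ctrl_Day3 replicate 2) and 6172 (without Rn45s) passed again in each alternative. With DESeq2 size factors and library totals, list medians kept their sign in untreated cells except trafficking receptors (0.00) and effector factors (-0.02), and in Dex cells except, with library totals, cytokines (0.09 to -0.0008), receptor complex (0.09 to -0.01), survival (0.06 to -0.04) and small nucleolar RNA host genes (0.07 to -0.03). Of the differences between cultures, 4 turned in sign and passed: Fbln2 at -1.46 with FPKM plus 0.1 and, with FPKM plus 1 (filtered or not), Fbln2 at -1.20, Slc14a1 at -0.82 and Spp1 at 2.04, and Oasl2 at -0.94 without WT_Ctrl_Day9 replicate 2, within a leave-one-out range of -0.94 to 0.44; their main differences were 0.23, 0.37, -0.82 and 0.03, none past the threshold. At this depth a gene needed about 0.597 CPM in 3 libraries to be tested.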

Other observations

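Genes of quiescence and growth control were lower after restimulation. Of 24 tested members 15 fell and 1 rose, with a median of -0.57. The rises numbered 0 without WT_Ctrl_Day3 replicate 3, without WT_Ctrl_Day9 replicate 3 or by limma on unfiltered FPKM. Foxp1, a factor that holds T cells quiescent, was at 138, 145 and 166 CPM at day 3 and 71.5, 73.9 and 74.6 CPM at day 9 (-1.03 ± 0.07, adjusted p = 9.4e-07). Arrdc3, an arrestin-like protein, was at 12.8, 13.3 and 16.6 CPM at day 3 and 4.07, 4.63 and 3.68 CPM at day 9 (-1.78 ± 0.16, adjusted p = 8.3e-06), and Slfn5, of the schlafen family, fell (-0.77 ± 0.07, adjusted p = 4.6e-06). Of 19 tested p53 targets 8 fell and 3 rose, with Trp53inp1 (-1.37 ± 0.14, adjusted p = 1.4e-05) and Btg2 (-1.06 ± 0.11, adjusted p = 2.7e-05) lower and Gadd45g (1.00 ± 0.07, adjusted p = 7.9e-07) and the cyclin G1 gene Ccng1 (0.48 ± 0.05, adjusted p = 2.6e-05) higher. Of 21 tested genes of the TGF-beta pathway 6 rose and 4 fell. Of the 17 that met the filter at both days 4 rose and 3 fell. The falls numbered 2 without WT_Ctrl_Day9 replicate 1 or WT_Ctrl_Day9 replicate 3. By limma on filtered FPKM 2 of 12 tested members rose and 2 fell. The list included the receptor gene Tgfbr1 at 9.93, 8.05 and 5.52 CPM at day 3 and 2.79, 2.85 and 3.46 CPM at day 9 (-1.37 ± 0.24, adjusted p = 7.7e-04).

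Of 6 tested markers of CD4 lineages 2 rose and 3 fell. The low-count filter favoured the direction of both rises, met through day 9 alone, and of 1 fall, met through day 3 alone. Of the 3 that met it at both days 2 fell. Cd40lg, the CD40 ligand of helper cells that activated CD8+ cells can also express, was at 0.662, 0.854 and 0.559 CPM at day 3 and 6.402, 9.73 and 14.1 CPM at day 9 (3.84 ± 0.36, adjusted p = 8.5e-06). Foxp3, the regulatory T cell factor, was at 4.57, 4.39 and 4.19 CPM at day 3 and 0.0582, 0.237 and 1.32 CPM at day 9 (-2.98 ± 0.60, adjusted p = 0.00193), and Il17a had 1 count at day 3 and 147 at day 9, a ratio of 129 (95% counting interval 22.8 to 5126). The 7 markers together were at 255 to 265 CPM at day 3 and 196 to 218 CPM at day 9. Most of that was Ctla4, also listed as an inhibitory receptor, at 229.7 CPM at day 3 and 184.3 CPM at day 9 on average. Cd4 itself was at 0.186 and 0.42 CPM. In the erythroid and platelet list the 1 tested gene, Itga2b, did not pass (-0.33 ± 0.47, adjusted p = 0.577), and the 10 markers summed to between 1.07 and 1.72 CPM in any library.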
